A study of Mus musculus with 4 samples.

Results

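The regions described here are the H3K9me2 regions that overlap an olfactory receptor gene or the 10 kb on either side of it, in mouse neural stem cells. They were picked by position alone. A region was a member when it overlapped by 1 bp or more the body plus 10 kb of a protein-coding gene whose symbol starts with Olfr in the GENCODE M21 annotation of mm10. This gave 363 of the 36111 regions on chromosomes 1 to 19 and X, or 1.01%, around 1135 genes, while the windows of these genes made up 0.884% of the genome.

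The study mapped the histone demethylase PHF2 and the histone mark H3K9me2 by ChIP-seq. The cells were wild-type C57BL/6J neural stem cells of embryonic stage E12.5, cultured in medium that held EGF at 20 ng/ml and FGF at 10 ng/ml. The groups were the H3K9me2 immunoprecipitation with Abcam antibody ab1220, on which the results rest, its input, the PHF2 immunoprecipitation with the Cell Signaling antibody D45A2, and its input. Each had 1 sample and no replicate, so no spread between cultures could be measured, no test was made, and every interval below is a 95% interval that covers counting error only.

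Olfactory receptors are G-protein-coupled receptors for odorants. Their genes form one of the largest gene families of the mouse and lie in tandem clusters on most chromosomes, and each usually has its whole protein-coding sequence in a single exon. A mature olfactory sensory neuron expresses a single allele of a single receptor gene, while the others are kept silent in heterochromatin that carries histone H3 methylated at lysine 9. H3K9me2 is the dimethyl form of that mark, set mainly by the EHMT1 and EHMT2 enzymes. The vomeronasal receptors of the Vmn1r and Vmn2r families are unrelated receptors of the vomeronasal organ whose genes also lie in clusters.

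The list holds 36171 regions, of which 60 lie outside chromosomes 1 to 19 and X and were not analysed further. Regions were short: 55.7% of those that were not members had 73 bp, the shortest length in the list. Its score column holds 0 throughout, so regions could only be counted and measured, and the depth behind them is unknown. The density was 14.1 regions per Mb over chromosomes 1 to 19 and X, with 14.9 on the autosomes and 2.82 on X.

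The longest members outside UTRs and exons show what a called region looks like. A region of 205 bp on mm10, chr1:92583092-92583296, lay 2483 bp upstream of Olfr1412. One of 170 bp at chr9:39624382-39624551 lay 177 bp downstream of Olfr960, and one of 165 bp at chr9:19327129-19327293 lay 7032 bp downstream of Olfr844. A region of 148 bp at chr2:88399683-88399830, in an intron of Olfr1178, was the longest that lay wholly in annotated repeats, with 83.8% of its 32-base words found once in the genome, against 100% in the other 3. All are shown 5′ to 3′ on the + strand, which is also the strand of these 4 genes, with matches to the E-box letters CANNTG in capitals, a motif whose share among members is given further on.
Olfr1412: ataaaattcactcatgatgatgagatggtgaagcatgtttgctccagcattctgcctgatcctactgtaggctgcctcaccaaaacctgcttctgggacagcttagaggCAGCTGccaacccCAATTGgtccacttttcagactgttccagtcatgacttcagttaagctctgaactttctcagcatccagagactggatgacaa
Olfr960: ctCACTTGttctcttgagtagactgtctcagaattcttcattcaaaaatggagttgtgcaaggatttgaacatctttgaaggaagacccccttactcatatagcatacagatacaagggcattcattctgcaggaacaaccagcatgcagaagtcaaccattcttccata
Olfr844: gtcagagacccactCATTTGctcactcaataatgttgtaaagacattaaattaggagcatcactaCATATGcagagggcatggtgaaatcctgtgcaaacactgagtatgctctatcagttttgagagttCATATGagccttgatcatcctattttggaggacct
Olfr1178: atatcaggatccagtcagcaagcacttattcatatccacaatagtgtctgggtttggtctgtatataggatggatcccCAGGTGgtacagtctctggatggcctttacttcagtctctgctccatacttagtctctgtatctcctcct

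Members inside coding exons are shown for 2 pairs of receptor genes of the same cluster, because the regions of each pair fell on matching stretches of paralogous sequence. The pairs were chosen after their values were seen. Olfr502 and Olfr506 on chromosome 7 lie 85721 bp apart. The Olfr502 region, chr7:108523642-108523714 on the - strand, covers coding bases 235 to 307, counted from 1 at the start codon. The Olfr506 region, chr7:108612542-108612629 on the + strand, covers coding bases 234 to 321. The 73 bp they share differ at 8 bases, an identity of 89.0%. Of 32-base words, 83.3% were found once in the genome in the Olfr502 region and 100% in the Olfr506 region. Olfr1151 and Olfr1153 on chromosome 2 lie 35038 bp apart. Their regions, chr2:87857489-87857601 and chr2:87896495-87896595, both on the + strand, match best without gaps over 86 bp, from coding base 313 of Olfr1151 and from coding base 334 of Olfr1153. That stretch differs at 22 bases, an identity of 74.4%. In these regions 98.8% of 32-base words at Olfr1151 and 100% at Olfr1153 were found once in the genome. Capitals mark the bases that differ within each pair, and sequences run 5′ to 3′ on the strand of the gene.
Olfr502: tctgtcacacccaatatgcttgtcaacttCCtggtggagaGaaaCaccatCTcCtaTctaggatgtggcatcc
Olfr506: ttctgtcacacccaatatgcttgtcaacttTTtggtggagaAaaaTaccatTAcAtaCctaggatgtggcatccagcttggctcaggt
Olfr1151: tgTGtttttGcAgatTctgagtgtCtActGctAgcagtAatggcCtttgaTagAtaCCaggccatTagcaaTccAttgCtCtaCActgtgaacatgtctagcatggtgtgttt
Olfr1153: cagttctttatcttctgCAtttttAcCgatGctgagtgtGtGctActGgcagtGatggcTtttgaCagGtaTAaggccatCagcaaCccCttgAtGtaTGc

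Over all receptor genes, H3K9me2 regions were somewhat denser in olfactory receptor windows than in the surrounding DNA, and the excess shrank once base composition was matched. The merged windows held the centres of 362 regions in 22.6 Mb, or 16.0 regions per Mb (14.4 to 17.7). The flanks, 1 Mb on either side of each cluster without any receptor window, held 1250 in 100 Mb, or 12.47 per Mb (11.8 to 13.2). The windows had 1.28 times the density of the flanks (1.14 to 1.44) as they stood. The windows had a GC content of 38.6%, against 43.7% in the flanks, and with the flanks weighted to the GC of the windows in classes of 2 percentage points the ratio was 1.13 (0.990 to 1.28), an interval that includes 1. Inside the clusters but outside every receptor window the density was 11.6 per Mb (9.36 to 14.3). Windows of all other protein-coding genes, drawn in the same way, had 12.9 per Mb (12.7 to 13.1).

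Beside vomeronasal receptor windows, olfactory receptor windows had more regions per Mb of all DNA, but not per Mb of DNA with unique sequence. The 331 vomeronasal genes had 133 regions, none of them shared with the olfactory set. Density was 16.0 per Mb in olfactory windows, against 11.6 per Mb (9.72 to 13.8) in vomeronasal windows, with 11.6 for Vmn1r and 11.7 for Vmn2r genes. At matched GC the ratio was 1.39 (1.13 to 1.70). Of sampled 32-base words, 75.8% occurred once in the genome in olfactory windows, against 54.4% in vomeronasal windows. In 1-kb bins whose sampled words were all unique, the densities were 20.8 per Mb (18.2 to 23.6) in olfactory windows and 23.8 per Mb (18.6 to 29.9) in vomeronasal windows, and the GC-matched ratio turned to 0.873 (0.669 to 1.14). In the remaining bins they were 11.3 per Mb in olfactory windows and 7.08 per Mb in vomeronasal windows. The sources used here do not say how reads with several matches were treated, and the part of this in these differences was not tested.

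In unique DNA both families had ratios to their own flanks with intervals above 1. In the same unique bins the GC-matched ratio to flanks was 1.20 (1.02 to 1.42) for olfactory windows and 1.34 (1.03 to 1.74) for vomeronasal windows. Over all DNA it was 1.13 for olfactory windows and 1.02 (0.843 to 1.24) for vomeronasal windows. With X left out as well, the olfactory ratio in unique bins was 1.15 (0.977 to 1.36). The 7 receptor genes on X had no member.

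**Figure D1:**
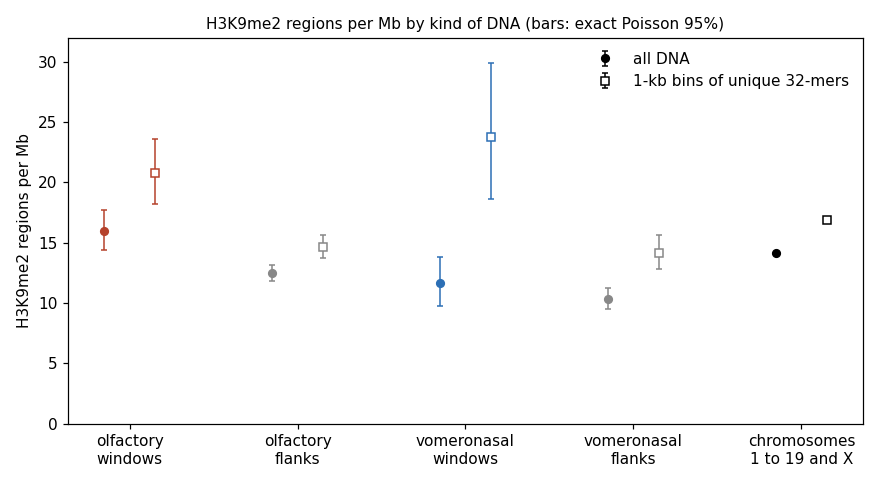
H3K9me2 regions per Mb in olfactory receptor windows, their flanks, vomeronasal receptor windows, their flanks and the whole of chromosomes 1 to 19 and X, for all DNA (filled circles) and for 1-kb bins of unique 32-base words (open squares), with exact Poisson 95% intervals. Olfactory windows stood at 16.0 per Mb, above vomeronasal windows at 11.6 per Mb, over all DNA, while in unique bins the values were 20.8 per Mb and 23.8 per Mb with overlapping intervals.

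Joining receptor genes within 200 kb of each other gave 63 olfactory clusters on 18 chromosomes, of which 14 were single genes and 34 held 5 or more. These 34 held 1079 of the 1135 genes, with a median of 0.433 Mb of windows. A cluster was called when its density was at least 1.5 times that of its own GC-weighted flanks, a size chosen because a single sample allows no test. Of the clusters of 5 or more genes, 12 of 34 were called, or 35.3%. In the rest of the genome it was 16.9% of the 4925 windows of 500 kb and 22.5% of windows of 200 kb. These 34 clusters had 0.103 to 4.12 Mb of windows, so neither size matches them all. Some calls rest on few regions, such as 1 at Olfr1378 to Olfr1375 and 2 at Olfr1513 to Olfr1507. Over all 63 clusters, 19 were called, or 30.2%, against 22.5% of background windows of 200 kb, the size nearer to the 0.126 Mb of a median cluster. In the other direction, at their own flanks divided by 1.5 or less, there were 5 of the 34 larger clusters, or 14.7%, against 23.9% of 500-kb windows. Over all 63 there were 23, or 36.5%, against 35.1% of 200-kb windows, and 18 of these had no region at all. For vomeronasal clusters of 5 or more genes, 7 of 22 were called, or 31.8%, and 10 were low, or 45.5%. Over all 47 vomeronasal clusters with a flank value, 15 were called, or 31.9%, and 24 were low, or 51.1%. The count among the 34 olfactory clusters was 7 with flanks of 2 Mb and 17 with windows of 5 kb on either side. In unique bins it was 13, not all of them the same clusters.

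Over all 63 clusters the split was even, with 32 above their flanks, 31 below and a median ratio of 1.07, against 0.920 for 200-kb windows, of which 45.4% were above 1. Of the 34 larger clusters, 22 were above and 12 below, with a median ratio of 1.28, against 0.967 for 500-kb windows, of which 47.0% were above 1. Densities in the 34 ran from 0 to 30.0 regions per Mb with a median of 16.2. The interval of the ratio lay above 1 in 1 of these clusters and below 1 in none. The cluster of 60 genes from Olfr9 to Olfr827 at chr10:128989431-130214403 was that one, with 12.1 per Mb (6.45 to 20.7) from 13 regions. Its flanks had 5 regions and a weighted 3.28 per Mb, and the ratio was 3.76 (1.14 to 12.47). The density of its windows was below the family's 16.0, beside flanks far below the 12.47 of all flanks.

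The 18 clusters of 20 or more genes hold 921 genes and 292 of the regions. The largest, 227 genes from Olfr987 to Olfr1274-ps on chromosome 2, had 58 regions centred in its windows and 14.1 per Mb (10.7 to 18.2), 1.67 times its flanks (0.918 to 3.04). The 95 genes from Olfr160 to Olfr986 on chromosome 9 had 43 regions and 22.3 per Mb (16.1 to 30.0), the only cluster in the family whose interval lay wholly above the family's density, and 1.59 times its flanks (0.727 to 3.47). Chromosome 7 also had 95 genes in a cluster, Olfr543 to Olfr649, which holds class I receptors, the class shared with fish. It had 22 regions and 15.3 per Mb (9.57 to 23.1), 1.51 times its flanks (0.701 to 3.27), near the family's density.

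Of the rest of these large clusters, Olfr20 to Olfr412 on chromosome 11 (16.9 per Mb, ratio 2.00), Olfr1417 to Olfr1441 on chromosome 19 (27.3 per Mb, ratio 1.77) and Olfr338 to Olfr368 on chromosome 2 (16.2 per Mb, ratio 1.71) were called as well, making 7 of 18 with the 4 above. Ratios of 1.46, 1.44, 1.34, 1.21 and 1.07, belonged to Olfr458 to Olfr47 on chromosome 6, Olfr722 to Olfr749 on chromosome 14, Olfr90 to Olfr136 on chromosome 17, Olfr651 to Olfr692 on chromosome 7 and Olfr30 to Olfr311 on chromosome 11. The other 6 lay below their flanks: Olfr24 to Olfr18 (chromosome 9, ratio 0.958), Olfr467 to Olfr519 (7, 0.883), Olfr1275 to Olfr1318 (2, 0.839), Olfr172 to Olfr209 (16, 0.827), Olfr693 to Olfr716 (7, 0.826) and Olfr1442 to Olfr1505 (19, 0.575). The last of these had 17.9 per Mb beside flanks at a weighted 31.2, although it lies next to Olfr1417 to Olfr1441, one of the clusters called. Every one of these intervals included 1, and all these ratios are over all DNA. In unique bins, Olfr20 to Olfr412 (1.02) and Olfr543 to Olfr649 (1.15) fell below 1.5. The other called clusters of 20 or more genes had 1.88 to 7.17 there. Olfr722 to Olfr749 (1.54) and Olfr90 to Olfr136 (1.70) rose above 1.5. Olfr651 to Olfr692 (0.562) and Olfr30 to Olfr311 (0.819) fell below 1. Olfr24 to Olfr18 (1.23) and Olfr467 to Olfr519 (1.24) rose above 1.

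Among the clusters of 5 or more genes, the highest densities were 30.0 per Mb (10.996 to 65.2) at Olfr1367 to Olfr1359 on chromosome 13, from 6 regions, 29.7 (8.08 to 76.0) at Olfr1416 to Olfr12 on chromosome 1, from 4 regions, and the 27.3 (14.1 to 47.7) at Olfr1417 to Olfr1441. Olfr70 to Olfr155 on chromosome 4 and Olfr1356 to Olfr57 on chromosome 10 had no region, which allows up to 32.4 and 20.3 per Mb. Olfr56 to Olfr1380 on chromosome 11 followed with 6.66 per Mb (1.37 to 19.5). These intervals all include the family's 16.0, so that the ends of the range do not differ from it beyond counting error. Among all 63 clusters, 18 with 39 genes had no region.

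**Figure D2:**
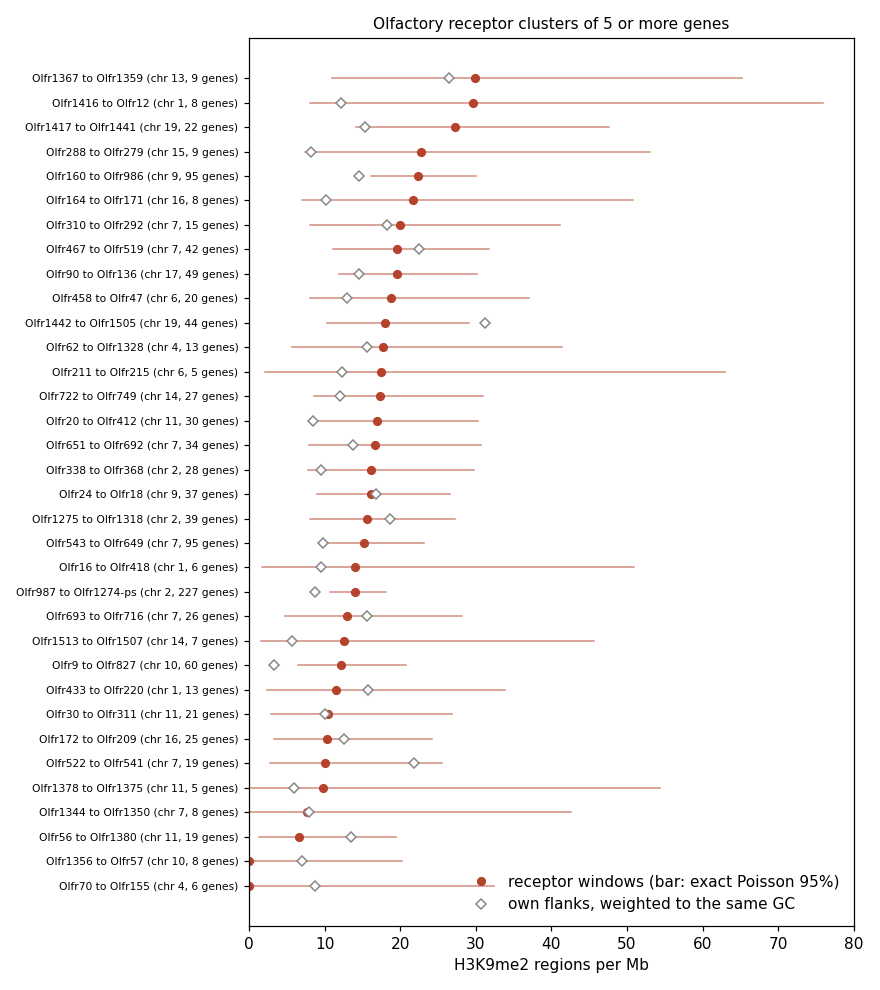
H3K9me2 regions per Mb in each of the 34 olfactory receptor clusters of 5 or more genes (circles, with exact Poisson 95% intervals) and in their own flanks weighted to the same GC (open diamonds), sorted by density. The circle lies right of the diamond in 22 clusters, and most intervals span the diamond. Those of Olfr987 to Olfr1274-ps, Olfr160 to Olfr986 and Olfr9 to Olfr827 lie right of it, and that of Olfr1442 to Olfr1505 left of it. The bars leave out the counting error of the flanks.

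Some vomeronasal clusters, unlike any olfactory cluster of their size, held almost no unique sequence. Of the 22 vomeronasal clusters of 5 or more genes, 5 had no region, and in these 0 to 8.75% of sampled 32-base words were unique. The longest of them, Vmn1r100 to Vmn1r132 on chromosome 7, has 27 genes and 5.35% unique words. Among the 34 olfactory clusters, the share of unique words ran from 61.7% at Olfr1356 to Olfr57, which had no region, to 87.0% at Olfr70 to Olfr155, which also had none. Whether lack of unique sequence leaves regions uncalled was not tested.

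**Figure D3:**
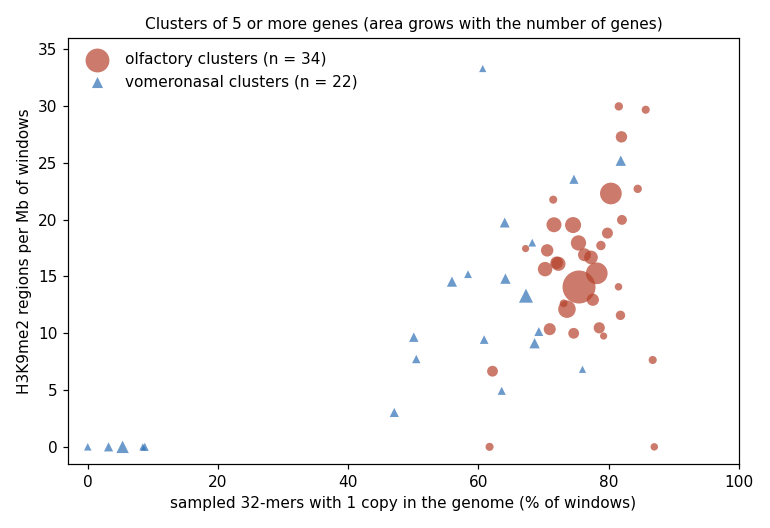
H3K9me2 regions per Mb of windows against the percent of sampled 32-base words with 1 copy in the genome, for the 34 olfactory and 22 vomeronasal receptor clusters of 5 or more genes, with symbol area growing with the number of genes. The olfactory clusters all lie above 60% unique words, while 5 vomeronasal clusters lie under 10% with no region.

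Counted by gene, 412 of 1135 olfactory receptor genes, or 36.3%, had a region in their window, against 37.0% of 20289 other protein-coding genes and 28.4% of 331 vomeronasal genes. Other genes are longer, and at like window length the order differed. With windows of 25 to 30 kb, which hold most of the family, the share was 36.6% (33.0 to 40.4, Wilson interval) of 642 olfactory genes, 21.1% of 76 vomeronasal genes and 18.7% (17.4 to 20.2) of 2914 other genes. These shares were matched for window length only, not for GC. Per Mb, olfactory windows had 16.0 regions and windows of other protein-coding genes 12.9. Neighbouring olfactory windows overlap, and 121 regions lay in the window of more than 1 receptor gene. These genes are therefore not independent counts, which the Wilson intervals do not allow for. A total of 334 genes had 1 region, 71 had 2, 6 had 3 and 1 had 4. A region lay in the body of 126 genes, on a coding exon of 29 and within 1 kb of the start of 47.

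Olfr33 had the 4 regions, and its neighbours Olfr558 and Olfr559 had 3 each, all from the same 4 regions of 73 to 88 bp between 102705236 and 102727181 on chromosome 7. Olfr558 is a class I receptor for short-chain fatty acids. The other genes with 3 regions were Olfr828 on chromosome 9, Olfr110 on chromosome 17, Olfr1441 on chromosome 19 and Olfr516 on chromosome 7, with 240 to 283 bp under regions. Olfr1413 on chromosome 1 and the adjacent Olfr64 and Olfr65 on chromosome 7 had 2 regions each, including the pair of longest members, the 205 bp region shown above and one of 178 bp at Olfr65.

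Among receptors that have been studied singly, 5 of 13 had a region in their window, beside 36.3% of all olfactory receptor genes. These were Olfr2, the I7 receptor, with 1 region of 144 bp in its body, Olfr558 with 3, Olfr73, a receptor for eugenol, with 1 of 80 bp at 6910 bp from the gene, Olfr690 with 1 of 75 bp at 2008 bp, and Olfr1019 with 1 of 108 bp at 6252 bp. The others, with the distance from the gene to the nearest region, were Olfr17 (P2) with 70155 bp, Olfr160 (M72) with 64465 bp, Olfr544 with 50569 bp, Olfr15 with 45891 bp, Olfr16 (MOR23) with 33083 bp, Olfr1507 (MOR28) with 30380 bp, Olfr78 with 11330 bp and Olfr124 with 10374 bp. None of the 13 had a region on its coding exon, beside 2.56% of all olfactory receptor genes.

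By position, members were densest on the coding exons of the receptors. Of the 363, 112 were upstream, 113 downstream, 57 in introns, 52 in UTRs and 29 on coding exons. Per Mb, coding exons had 26.2 regions (17.4 to 37.8; 28 centred in 1.07 Mb), introns and UTRs 16.6 (13.6 to 20.0), the 10 kb upstream 14.6 (12.03 to 17.6) and the 10 kb downstream 15.5 (12.8 to 18.6). The coding interval overlaps that of introns and UTRs narrowly. In unique bins, coding exons had 39.7 (24.6 to 60.8), beside 19.1 (15.2 to 23.8) in introns and UTRs, 19.2 (14.8 to 24.5) upstream and 21.5 (16.7 to 27.3) downstream, the last of which overlaps the coding interval. The kilobase just downstream of the genes had 26.8 (15.6 to 42.9) in these bins.

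Coding exons of receptors also had more regions than other coding sequence. Coding exons of other protein-coding genes had 9.31 per Mb (8.32 to 10.4), and those of 800 bp or more, closer in length to a receptor's median of 939 coding bp, had 9.28 (7.12 to 11.9). Weighted to the same GC, receptor coding exons had 2.02 times the density of other coding exons (1.36 to 2.996) and 1.92 times that of the flanks of the clusters (1.32 to 2.79). In unique bins these ratios were 2.82 (1.79 to 4.43) and 2.33 (1.51 to 3.60). Vomeronasal coding exons had 7.83 per Mb (2.13 to 20.0) from 4 regions, and 24.5 (5.06 to 71.7) from 3 in unique bins. The olfactory values rest on 28 regions in a single sample, and with only regions longer than 73 bp they fell to 14 regions and 13.1 per Mb (7.15 to 22.0). With that filter, introns and UTRs of the receptors had 8.44 per Mb, the 10 kb upstream 7.24 and the 10 kb downstream 7.68. Coding exons of other genes were not counted with it, so the values for them above are no like reference.

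Aligned at the start codon, the first kilobase downstream of it, where the coding exon lies, had 25.6 regions per Mb (17.1 to 36.7) from 29 regions. The kilobase before it had 12.3 (6.75 to 20.7), and the other 18 bins between -10 and 10 kb had 2.69 to 21.2, with intervals that overlap that of the first kilobase in all but the bin from -9 to -8 kb. Of the 29 members on coding exons, 28 lay on genes whose coding sequence is in a single exon in the longest transcript, all but that of Olfr1175-ps. Such genes are most of the family, with 1 coding exon in 1084 of 1135 genes after merging transcripts. With the coding sequence of the 28 split into 3 equal parts, 9 regions were centred in the first part, 10 in the middle and 8 in the last. The region at Olfr267 overlapped the end with its centre outside.

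**Figure D4:**
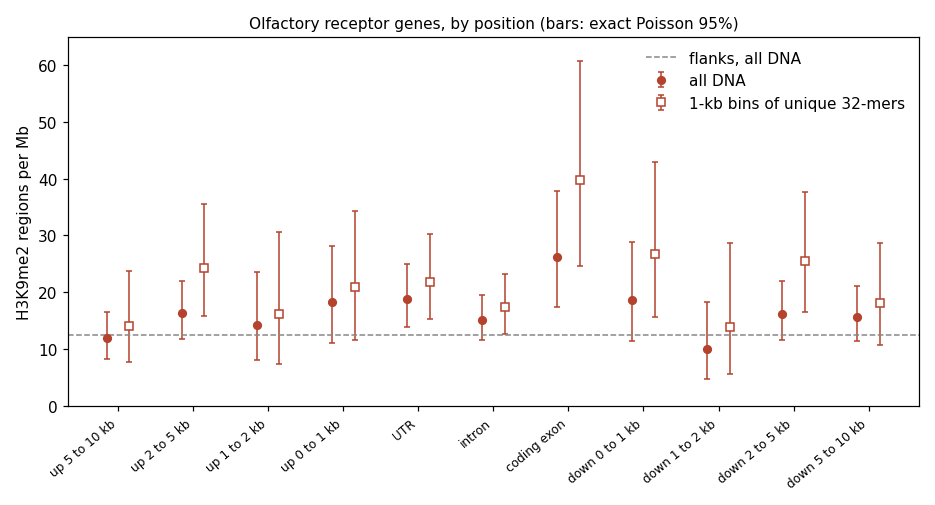
H3K9me2 regions per Mb by position at olfactory receptor genes, for all DNA (filled circles) and for 1-kb bins of unique 32-base words (open squares), with exact Poisson 95% intervals. The dashed line is the density of the flanks over all DNA without GC weighting, 12.47 per Mb, and is no like reference for the squares. Weighted to the GC of the windows, the flanks had 14.2 per Mb over all DNA and 17.3 in unique bins. Coding exons stood highest in both, at 26.2 per Mb and 39.7 per Mb.

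The coding exons with most bases under a region were those of Olfr1121 on chromosome 2 with 135 bp, Olfr395 on chromosome 11 with 132 bp, Olfr250 on chromosome 9 with 114 bp and Olfr1151 with 113 bp. Olfr1153 (101 bp) and Olfr1155 (100 bp) lie in the same cluster as Olfr1151, and Olfr1441 (99 bp), Olfr981 (94 bp), Olfr506 (88 bp) and Olfr50 (86 bp) followed. In Olfr1121 and Olfr250 the region lay towards the 3′ end of the coding sequence, at bases 746 to 880 and 743 to 856, while in Olfr395 it covered bases 373 to 504. In Olfr1441, Olfr828 and Olfr1176 it ran over the start codon. No member on a coding exon was mostly annotated repeat, and 86.2% of the 29 consisted only of 32-base words found once in the genome.

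As a set, members had less GC and CpG and more repeat than the rest of the list. Their GC had a median of 39.6% and quartiles of 34.2% and 44.7%, against a median of 42.5% in all other regions and 38.4% in 73-bp windows placed in the receptor windows. Members had 4.20 CpG per kb, against 6.72 in all other regions and 5.17 in those placed windows. Annotated repeats made up most of 27.0% of members and 17.8% of other regions, and of 41.4% of the placed windows. Of members, 73.8% held only unique 32-base words, against 87.7% of other regions and 56.4% of vomeronasal regions. Length differed little: 50.1% of members had the minimal 73 bp, against 55.7% of other regions, and the longest had 205 bp, against 367 bp.

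The motif letters searched on both strands gave small differences, in sets that differ in length, since 181 members are longer than the 73-bp windows. CANNTG, the E-box letters, stood in 33.1% of members (28.4 to 38.1), 37.6% of other regions, 32.4% of 73-bp windows in the flanks and 30.1% of those in the receptor windows. TAATTA, the core letters of homeodomain factors such as LHX2, which acts at receptor promoters in olfactory neurons, stood in 3.86% (2.31 to 6.37), 2.80%, 2.09% and 3.12% of the same sets. The core of EBF factors, TCCC and GGGA with 2 bases between them, was in 0 of 363 members, which allows up to 1.05%, and in 0.123% of other regions. A CG dinucleotide was in 31.4% of members (26.8 to 36.4), 40.8% of other regions, 42.1% of flank windows and 28.2% of the placed windows.

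Members were spread out along the clusters. The median distance to the next region was 22057 bp for members and 20620 bp for other regions, and 13.5% of members lay within 5 kb of another region, against 17.7% of other regions. There were 24 pairs of members within 5 kb of each other and no larger group. The tightest were 2 regions within 287 bp in an intron of Olfr63 on chromosome 17, 2 within 341 bp upstream of Olfr876 on chromosome 9 and 2 within 826 bp at Olfr1434 on chromosome 19.

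PHF2, a demethylase for which H3K9me2 is a described substrate, had few peaks near these genes. Of 5992 PHF2 peaks, 3 overlapped an olfactory receptor window, or 0.133 per Mb, against 2.34 per Mb of the genome. Each of the 3 lay on another gene, Zfp202 next to Olfr986 on chromosome 9, and Zkscan8 and Hist1h2ai near Olfr1366 and Olfr1359 on chromosome 13. The median distance from a member to the nearest PHF2 peak was 577977 bp, against 265530 bp for other regions. The shortest, 257 bp, was at a region downstream of Olfr1366, beside the peak at Zkscan8.

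Related gene lists are given with their density and, because genes differ in length, beside genes of like window length where such a share is at hand. Of 60 other chemoreceptor genes, 19 had a region in their window, at 12.3 per Mb (6.54 to 21.01). With windows of 20 to 25 kb, 16 of 55 of them had a region, or 29.1%, against 34.3% of olfactory receptor genes and 16.2% of other protein-coding genes. These shares were not matched for GC, and windows of neighbouring genes overlap. The 19 were 6 of 15 trace amine receptors (Taar), 7 of 35 bitter taste receptors (Tas2r) and 6 of 7 formyl peptide receptors (Fpr), the last at 30.1 per Mb (11.1 to 65.5). Of 13 genes of olfactory signalling, at 4.84 per Mb (1.57 to 11.3), 3 had a region: Ano2, a calcium-gated chloride channel, and Cngb1, a subunit of the cyclic nucleotide-gated channel, with 2 each, and Stoml3 with 1. Of 19 genes of receptor choice and silencing, at 15.5 per Mb (10.2 to 22.8), 9 had a region, 7 of them among the 8 with windows of 60 kb or more. Of the signalling genes of that length, 2 of 6 had one. No share of other genes of that length is given here, so these counts have no reference. Over all lengths, 37.0% of other protein-coding genes had a region. At 30 to 40 kb, 0 of 6 choice and silencing genes had one, against 24.3% of other genes, and at 40 to 60 kb, 2 of 3, against 34.1%. Ebf1 had 15 regions over a body of 390775 bp, and Ebf2, Ehmt1 and Kdm1a had 2 each. The density of the choice and silencing list came from 26 regions, so it rests largely on Ebf1.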

How the data were processed

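The values came from 1 list of H3K9me2 regions and 1 list of PHF2 peaks. Per the submitters' processing notes, Bowtie2 and the mm10 genome were used. The PHF2 peaks were called with MACS, per the file headers. For the H3K9me2 list, the sources used here name no caller, no control and no handling of reads with several matches, and its threshold on p is known only from how the deposited list was named. The deposited score column is 0 throughout the H3K9me2 list, and the score of the PHF2 list was not used. Lists give no read totals, so depth is unknown. The inputs were not analysed here.

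Genome sequence and soft-masked repeats came from GRCm38.p6, the assembly of mm10, and genes from GENCODE M21. Densities used 1-kb bins without N. Flank densities were weighted to the GC classes of the windows. Uniqueness was the share of 5 sampled 32-base words per bin, on either strand, with 1 copy in chromosomes 1 to 19, X and Y, and unique bins had a share of at least 0.9. Single densities have exact Poisson intervals, ratios log-scale counting intervals and shares Wilson intervals. The density code was tested on simulated regions. Alternatives varied windows, joining distance, flanks, GC matching, repeats, uniqueness, region length and gene set. Printed sequences are those of this reference, not of the reads.

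The members and lists were chosen with earlier results of these data known. Named genes were the 10 with most regions, the 10 with the longest coding stretch under a region and a list of studied receptors, of which Olfr151 is not annotated as protein-coding in this release. Named clusters had 20 or more genes or the 3 highest or lowest densities. Python 3.11.15, NumPy 2.4.6, SciPy 1.17.1, Matplotlib 3.10.9 and gcc 11.4.0 were used.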

Additional observations from a re-analysis of the deposited data

Results flagged for a closer look

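The list held 60 H3K9me2 regions outside chromosomes 1 to 19 and X, of 36171 regions in all, in sequence that no comparison used. Whether any lies near a receptor gene was not analysed.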

How the results depend on the processing

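No paired analysis was possible because each group had 1 sample. The ratio of olfactory windows to their flanks was above 1 under all 17 alternatives, from 1.04 to 1.29, with an interval above 1 in 9; it moved beyond the original interval without GC matching (1.28) and with only regions longer than the minimum (1.29). The ratio to vomeronasal windows was above 1 under 13 of 15 alternatives and 1.70 with longer regions, but turned to 0.873 in unique bins and to 0.882 in unique bins without X, an alternative added after the data had been seen. Density in windows was 17.9 per Mb over gene bodies alone, 19.5 in bins mostly outside repeats, 20.8 in unique bins and 8.003 with longer regions. By position, unique bins, also added later, gave 39.7 at coding exons, 19.2 upstream and 21.5 downstream, bins outside repeats gave 18.7 upstream and 21.2 downstream, and longer regions gave 13.1 at coding exons, 8.44 in introns and UTRs, 7.24 upstream and 7.68 downstream. Members numbered 138 over bodies alone and 181 with longer regions. The number of called clusters stayed within 1.5 times of 19, between 14 and 25. The cause of these shifts was not tested. A single sample without read counts limits all values to counting error.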
